A study of Homo sapiens with 9 samples.

Results

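The Notch axis was followed here through 10 genes in Hep3B cells, a human hepatocellular carcinoma line: the ligand genes JAG1 and JAG2, the receptor genes NOTCH1, NOTCH2 and NOTCH3, the protease genes ADAM10 and ADAM17, and HES1, HEY1 and SOX9, which Notch signalling is known to induce. The members were chosen by gene symbol, and they and the gene lists used below were chosen with earlier results of these data known. Counts set beside shares of all genes are therefore descriptive and not a test. Each of the 10 was measured by 1 probe set that the array annotation assigns to that gene alone, out of 18417 genes measured by such probe sets. Total RNA was hybridised to 9 Affymetrix gene arrays in 3 groups of 3. The groups were cells transfected with an siRNA specific for YAP, cells transfected with a nonsense siRNA, and untreated cells; a small interfering RNA (siRNA) depletes its matching transcript, and YAP, the product of YAP1, is a coactivator held back by the Hippo pathway. Transfection used Oligofectamine after 24 h of growth, and both siRNA groups were harvested 24 h later. For the untreated cells only the 24 h of growth is listed, and their harvest time is not stated. Comparisons with untreated cells therefore also differ in transfection and perhaps in time in culture, and the part of these was not tested. Only this 1 line was used. The sample titles begin with HUH, but Hep3B is given both as the cell line and in the descriptions, and that name was kept.

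In Notch signalling a Jagged or Delta ligand on one cell binds a Notch receptor on its neighbour. The bound receptor is cut outside the membrane by an ADAM protease and then inside it by gamma-secretase. The freed intracellular domain enters the nucleus, joins the DNA-binding protein RBPJ and a Mastermind coactivator, and switches on genes such as those of the HES and HEY repressors. In the liver, JAG1 and NOTCH2 are known for their part in bile duct formation, and JAG1 is known as a transcript that YAP can raise.

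Values are log2 array signals, so a difference of 1 is a doubling of signal. Array medians over all probe sets differed by at most 0.06, and any pair of arrays correlated across genes at a Pearson's r of 0.988 to 0.997 (genes are not independent replicates). Separate cultures are not stated for the samples of a group, so p-values here measure only the spread between these samples, which may be technical. The siRNA check held: YAP1 averaged 7.51 ± 0.03 after YAP siRNA, 8.70 ± 0.05 after nonsense siRNA and 8.70 ± 0.08 in untreated cells (SD, n = 3 each). To pass, a gene needed a limma p below 0.05 after Benjamini-Hochberg adjustment over all 18417 genes. In bulk RNA, fewer cells with a transcript and less of it per cell cannot be told apart. The arrays least like the others of their group were replicate 3 of YAP siRNA, replicate 2 of nonsense siRNA and replicate 3 of the untreated cells, with limma array weights of 0.462, 0.453 and 0.597, the lowest of the 9. Probe sets of different genes differ in sensitivity, so levels were compared between groups and not between genes.

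Of the 10 members, JAG1 and ADAM17 fell after YAP siRNA against both control groups, and the other 8 did not pass in any comparison. In all, 2 of 10 fell and 0 rose against nonsense siRNA, where 4.53% of all genes passed, 2.61% as falls and 1.92% as rises. Against untreated cells 2 of 10 fell and 0 rose, where 3.09% of all genes passed, 1.46% as falls and 1.63% as rises. Both comparisons use the same YAP siRNA arrays. JAG1 and ADAM17 lay above the median signal over genes. In a fit of the 9209 genes at or above that median, larger shares passed: 9.68% against nonsense siRNA and 6.28% against untreated cells. The median difference of the members was -0.11 against nonsense siRNA, beside 0.01 over all genes, and -0.11 against untreated cells, beside -0.01 over all genes. At an unadjusted p under 0.05, 5 members were lower against nonsense siRNA and 3 against untreated cells, and 0 were higher in either, beside 15.8% of all genes in either direction in each comparison. By direction, 1416 of all 18417 genes were lower and 1488 higher against nonsense siRNA, and 1322 were lower and 1582 higher against untreated cells.

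The promoters of JAG1, ADAM17 and HES1 are shown because JAG1 and ADAM17 are the members that fell and HES1 is the classical Notch target. Each is the stretch of 250 bases before the gene's start in RefSeq (GRCh38.p14), read 5′ to 3′ on the gene's strand. It lies at chr20:10674000-10674249 on the minus strand for JAG1, at chr2:9555831-9556080 on the minus strand for ADAM17 and at chr3:194135898-194136147 on the plus strand for HES1. Capitals mark the letters GGAATG or their reverse complement CATTCC, the core that TEAD factors, the DNA-binding partners of YAP, are known to bind, and TGGGAA or its reverse complement TTCCCA, the core bound by RBPJ.
JAG1: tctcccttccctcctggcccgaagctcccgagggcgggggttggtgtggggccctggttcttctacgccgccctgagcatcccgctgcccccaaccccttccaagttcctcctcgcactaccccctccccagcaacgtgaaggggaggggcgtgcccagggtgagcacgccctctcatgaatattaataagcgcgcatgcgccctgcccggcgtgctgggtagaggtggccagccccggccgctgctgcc
ADAM17: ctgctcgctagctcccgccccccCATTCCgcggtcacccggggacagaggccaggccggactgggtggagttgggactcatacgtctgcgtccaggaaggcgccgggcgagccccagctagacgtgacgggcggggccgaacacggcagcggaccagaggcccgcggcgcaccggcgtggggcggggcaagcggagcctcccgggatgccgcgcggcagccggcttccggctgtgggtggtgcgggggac
HES1: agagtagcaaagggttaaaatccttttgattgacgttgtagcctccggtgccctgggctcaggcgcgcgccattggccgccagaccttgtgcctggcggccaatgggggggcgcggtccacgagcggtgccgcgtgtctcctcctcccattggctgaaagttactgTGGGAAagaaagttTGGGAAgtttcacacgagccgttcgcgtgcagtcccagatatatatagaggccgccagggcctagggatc

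The ADAM17 window held 1 match to the TEAD core, on the opposite strand and beginning 227 bases before the start. The HES1 window held 2 matches to the RBPJ core on the gene's strand, beginning 84 and 70 bases before the start. The JAG1 window held no match to either string, which says only that these letters are not in this window. Windows were at hand for 8 of the 10 members, and not for HEY1 and SOX9. Of these 8, ADAM17 alone held the TEAD core and HES1 alone the RBPJ core. Among 27305 promoter windows of the same length, 11.9% held the TEAD core and 21.1% the RBPJ core on either strand. The strings can overlap each other, though none did in these windows. A match describes the letters and is not evidence of binding.

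JAG1, the ligand gene, was lowest on the YAP siRNA arrays. Its signal was 10.63, 10.56 and 10.62 on the YAP siRNA arrays, against 10.90, 11.01 and 10.95 on the nonsense siRNA arrays and 11.01, 10.95 and 10.90 on the untreated arrays. All 3 YAP siRNA arrays lay below all 6 control arrays, and the control groups overlapped almost completely. Relative to nonsense siRNA, JAG1 fell by 0.35 in log2 signal (SE 0.0533, adjusted p = 0.000989), so that 78.4% of the nonsense siRNA signal remained, with a 95% interval of 72.5 to 84.8%. Relative to untreated cells JAG1 also fell by 0.35 (adjusted p = 0.00149), with 78.5% remaining, with a 95% interval of 72.6 to 84.9%. Nonsense siRNA and untreated cells differed by 0.00 (adjusted p = 0.986), and the 95% interval of that difference ran from -0.11 to 0.12. By size of fall JAG1 ranked 192 of 18417 genes against nonsense siRNA and 100 against untreated cells. A two-sided exact permutation test of YAP siRNA against all 6 controls gave a difference of -0.35 and p = 0.0119, the smallest that 3 arrays against 6 allow. JAG1 passed against both controls whichever of the 9 arrays was left out, with adjusted p of at most 0.00791 against nonsense siRNA and 0.0123 against untreated cells.

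JAG2, which encodes the other Jagged ligand, did not pass. Its signal was 7.21, 7.17 and 7.30 after YAP siRNA, 7.20, 7.33 and 7.27 after nonsense siRNA and 7.36, 7.25 and 7.45 in untreated cells, so that the groups overlapped. The difference was -0.04 against nonsense siRNA (adjusted p = 0.858), with a 95% interval of -0.17 to 0.09, and -0.12 against untreated cells (adjusted p = 0.349), with a 95% interval of -0.26 to 0.01. The paralogs were also compared within each array, in a test added after the data were seen. The log2 signal of JAG1 minus that of JAG2 was between 3.32 and 3.42 on the YAP siRNA arrays, between 3.67 and 3.70 on the nonsense siRNA arrays and between 3.45 and 3.70 on the untreated arrays. The mean of this log2 ratio differed by -0.27 between YAP siRNA and the 6 controls (two-sided exact permutation p = 0.0119, adjusted over the 2 paralog ratios tested 0.0119), again the smallest p possible. The ratio shows unequal change and does not show that JAG2 stayed constant. JAG1 already lay below all 6 controls when the test was added, so this p is not separate evidence of its fall.

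**Figure D1:**
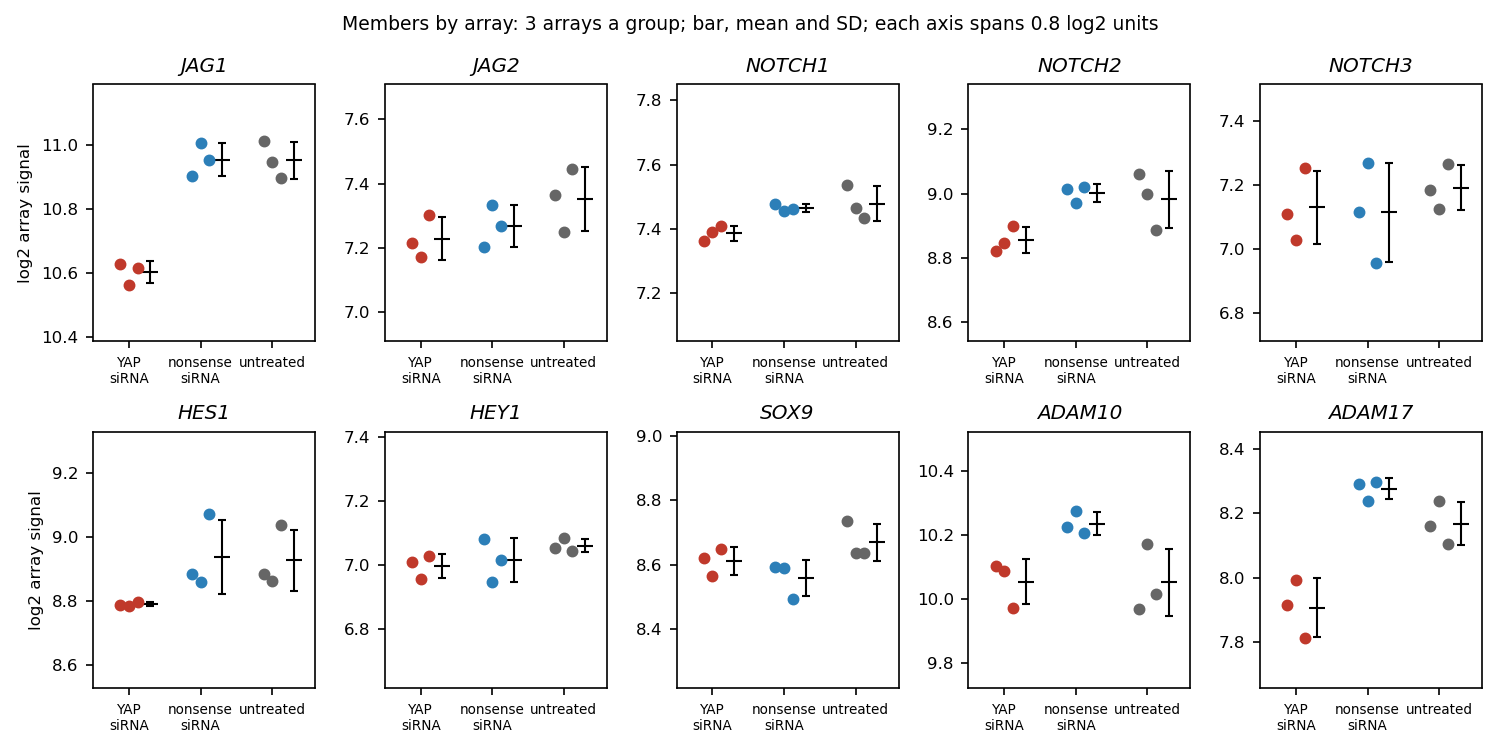
Log2 array signal of each member on each array, with YAP siRNA in red, nonsense siRNA in blue and untreated cells in grey. The bar beside the points gives the group mean and SD of 3 arrays, and every axis spans 0.8 log2 units. The YAP siRNA points lie below all control points for JAG1, NOTCH1, HES1 and ADAM17, while those of NOTCH3 are spread widely in the siRNA groups.

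None of the receptor genes passed. NOTCH2, the receptor gene known for bile duct development, had 8.82, 8.85 and 8.90 after YAP siRNA, 9.01, 8.97 and 9.02 after nonsense siRNA and 9.06, 9.0 and 8.89 in untreated cells. The YAP siRNA arrays lay below the nonsense siRNA arrays, while the lowest untreated array, replicate 3, fell within the YAP siRNA range. NOTCH2 differed by -0.15 from nonsense siRNA (SE 0.0558, adjusted p = 0.184), with a 95% interval of -0.27 to -0.03, and by -0.13 from untreated cells (adjusted p = 0.277). It passed with array weights against nonsense siRNA (adjusted p = 0.0122) and against untreated cells (adjusted p = 0.0480), and against untreated cells also without the 3 arrays that stand apart (adjusted p = 0.0414). NOTCH2 has close partial copies in the human genome. A second probe set, assigned jointly to NOTCH2, NOTCH2NLA and NOTCH2NLB, averaged 7.98 ± 0.04 after YAP siRNA, 8.17 ± 0.04 after nonsense siRNA and 8.08 ± 0.06 in untreated cells (SD, n = 3 each). It differed by -0.19 from nonsense siRNA (limma adjusted p = 0.111 over all probe sets) and its signal cannot be given to one gene.

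NOTCH1 had 7.36, 7.39 and 7.41 after YAP siRNA, 7.48, 7.46 and 7.46 after nonsense siRNA and 7.54, 7.46 and 7.43 in untreated cells. The YAP siRNA arrays lay below all 6 controls, but the differences were small: -0.08 from nonsense siRNA (adjusted p = 0.519) and -0.09 from untreated cells (adjusted p = 0.399). NOTCH3 had 7.11, 7.03 and 7.25 after YAP siRNA, 7.12, 7.27 and 6.96 after nonsense siRNA and 7.19, 7.12 and 7.27 in untreated cells. Its groups overlapped throughout, and it differed by 0.02 from nonsense siRNA (adjusted p = 0.964) and by -0.06 from untreated cells (adjusted p = 0.743). The 95% interval of the first of these NOTCH3 differences, -0.15 to 0.18, was the widest among the members against nonsense siRNA.

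The proteases parted. ADAM17, which sheds many membrane proteins, tumour necrosis factor among them, and can cut Notch receptors, had 7.91, 7.99 and 7.81 after YAP siRNA, 8.29, 8.24 and 8.30 after nonsense siRNA and 8.16, 8.24 and 8.11 in untreated cells. All 3 YAP siRNA arrays lay below all 6 controls. Relative to nonsense siRNA, ADAM17 fell by 0.37 (SE 0.0586, adjusted p = 0.00132), so that 77.3% of that signal remained, with a 95% interval of 70.9 to 84.3%. Relative to untreated cells ADAM17 fell by 0.26 (adjusted p = 0.0213), with 83.4% remaining, with a 95% interval of 76.5 to 90.9%. Nonsense siRNA itself stood at 0.11 above untreated cells for ADAM17 (adjusted p = 0.313), and the nearest arrays of the control groups were both at 8.24. By size of fall ADAM17 ranked 162 of 18417 genes against nonsense siRNA and 206 against untreated cells. The call against nonsense siRNA held whichever array was left out (adjusted p up to 0.0105). The call against untreated cells was lost in 4 of them: without YAP siRNA replicate 1 (adjusted p = 0.0843) or 3 (0.0597), and without untreated replicate 1 (0.0735) or 2 (0.109). It was also lost with arrays centred on their median (0.0757) and with every probe set tested (0.106).

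ADAM10, which encodes the main protease that cuts ligand-bound Notch receptors, had 10.10, 10.09 and 9.97 after YAP siRNA, 10.23, 10.27 and 10.20 after nonsense siRNA and 9.97, 10.17 and 10.02 in untreated cells. The nonsense siRNA arrays were the high ones, above all arrays of the other groups. ADAM10 differed by -0.18 between YAP siRNA and nonsense siRNA (SE 0.0611, adjusted p = 0.128) and by 0.00 between YAP siRNA and untreated cells (adjusted p = 0.994). Nonsense siRNA minus untreated cells was 0.18 (adjusted p = 0.144). Within each array, ADAM17 minus ADAM10 was between -2.19 and -2.09 after YAP siRNA, between -2.03 and -1.90 after nonsense siRNA and between -1.93 and -1.81 in untreated cells. The mean of this log2 ratio differed by -0.23 between YAP siRNA and the 6 controls (two-sided exact permutation p = 0.0119, adjusted over the 2 ratios 0.0119). This test too was added after the data were seen, with ADAM17 already below all 6 controls, so its p is not separate evidence of a fall. It also treats the 6 controls as 1 group, although ADAM10 was higher on every nonsense siRNA array than on every untreated array.

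The target genes did not pass either. HES1, a repressor gene that RBPJ is known to control directly, had 8.79, 8.78 and 8.80 after YAP siRNA, 8.88, 8.86 and 9.07 after nonsense siRNA and 8.88, 8.86 and 9.04 in untreated cells. The YAP siRNA arrays lay below all 6 controls and close together, with an SD of 0.0063, while replicate 3 of each control group stood above its other 2 arrays. HES1 differed by -0.15 from nonsense siRNA (SE 0.0647, adjusted p = 0.272), with a 95% interval of -0.29 to -0.01, and by -0.14 from untreated cells (adjusted p = 0.317). Without nonsense siRNA replicate 3 the first of these differences was -0.08 (adjusted p = 0.739).

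HEY1, a related repressor gene, had 7.01, 6.96 and 7.03 after YAP siRNA, 7.08, 6.95 and 7.02 after nonsense siRNA and 7.05, 7.08 and 7.04 in untreated cells. It differed by -0.02 from nonsense siRNA (adjusted p = 0.933) and by -0.06 from untreated cells (adjusted p = 0.604). SOX9, which encodes a transcription factor of bile duct and progenitor cells, had 8.62, 8.57 and 8.65 after YAP siRNA, 8.59, 8.59 and 8.49 after nonsense siRNA and 8.74, 8.64 and 8.64 in untreated cells. It stood at 0.05 above nonsense siRNA (adjusted p = 0.739) and differed by -0.06 from untreated cells (adjusted p = 0.646). The YAP siRNA arrays of HEY1 lay below the untreated arrays and overlapped the nonsense siRNA arrays, while those of SOX9 overlapped both control groups.

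Counted by array rather than by test, 4 of the 10 members had all 3 YAP siRNA arrays below all 6 controls, beside 3.61% of all genes, and 0 had them above all 6, beside 4.29%. The 4 were JAG1, ADAM17, NOTCH1 and HES1, and the last 2 did not pass. Against nonsense siRNA alone 6 members lay wholly below, beside 8.71% of all genes, with NOTCH2 and ADAM10 added. Against untreated cells alone 5 lay wholly below, beside 10.3%, with HEY1 added. Between the controls, SOX9 was the 1 member wholly below after nonsense siRNA, beside 13.8% of all genes, and ADAM10 and ADAM17 lay wholly above, beside 8.90%. No member lay wholly above after YAP siRNA, beside 11.5% of all genes against nonsense siRNA and 10.2% against untreated cells.

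**Figure D2:**
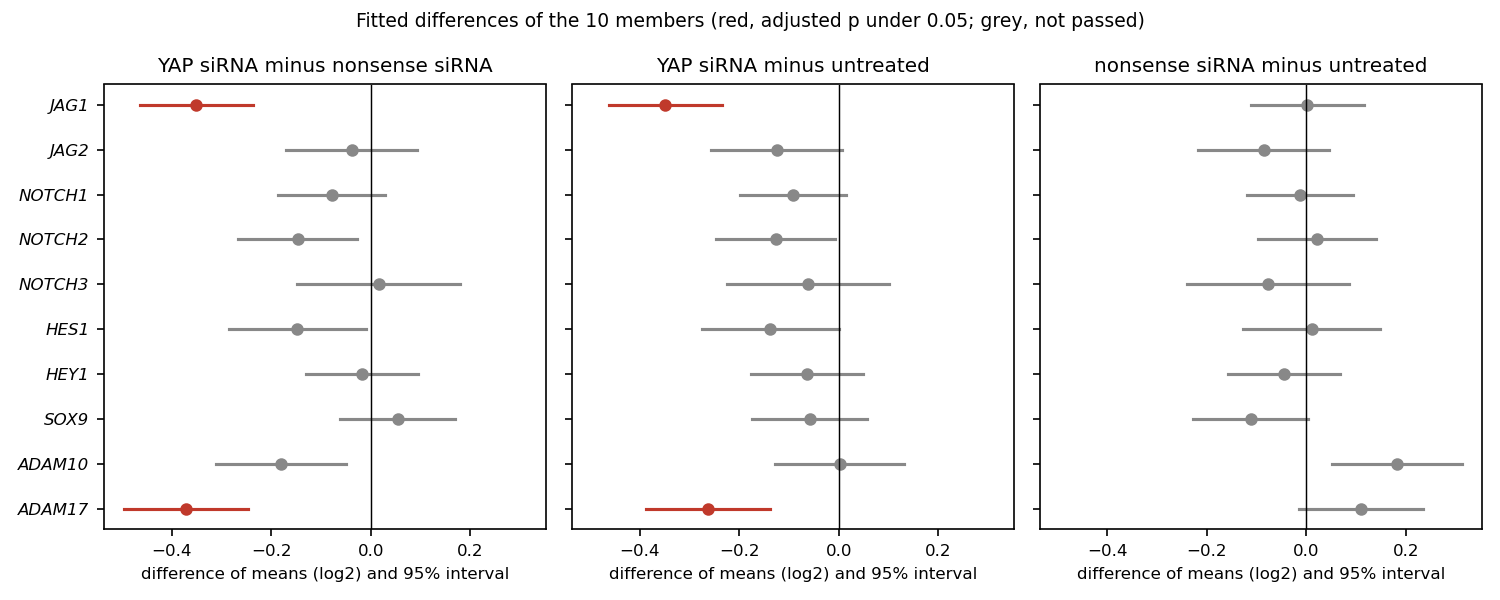
Fitted difference of group means for each member on the log2 scale, with its 95% interval, in the 3 comparisons, the YAP siRNA comparisons at left and centre. Red marks an adjusted p under 0.05. JAG1 and ADAM17 are red in both YAP siRNA panels, and no member is red in the panel of nonsense siRNA minus untreated cells.

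Between nonsense siRNA and untreated cells 0 of the 10 members passed by limma, beside 0.614% of all genes. At an unadjusted p under 0.05 there was 1 member, ADAM10, which was higher after nonsense siRNA, beside 19.5% of all genes. The differences of the members ran from -0.11 for SOX9 to 0.18 for ADAM10, with a median of -0.01 beside -0.02 over all genes. The order of the groups thus varied by gene. JAG1, NOTCH1, NOTCH2 and HES1 had YAP siRNA lowest and control means that differed by at most 0.02. ADAM10 and ADAM17 had nonsense siRNA highest. SOX9 had nonsense siRNA lowest and untreated cells highest, with neighbouring groups that did not differ beyond their spread.

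Outside the members, 69 of 76 listed genes of the Notch pathway were measured. After YAP siRNA 7 of 69 fell and 1 rose against nonsense siRNA, beside 2.61% and 1.92% of all genes, with a median difference of 0.02 beside 0.01 over all genes. Against untreated cells 4 of 69 fell and 0 rose, beside 1.46% and 1.63% of all genes, with a median of -0.02. TSPAN14, KDM5A and NEDD4 fell against both controls, which 1.11% of all genes did. The list as a whole was centred near the middle of all genes.

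NEDD4, which encodes a ubiquitin ligase that acts on many membrane proteins, had 7.43, 7.54 and 7.30 after YAP siRNA, 7.86, 7.82 and 7.97 after nonsense siRNA and 7.75, 7.81 and 7.73 in untreated cells. The YAP siRNA arrays lay below all 6 controls, and NEDD4 fell by 0.46 relative to nonsense siRNA (SE 0.0647, adjusted p = 0.000556) and by 0.34 against untreated cells (adjusted p = 0.00784). KDM5A, a histone demethylase gene whose product is known as a corepressor at RBPJ-bound genes, averaged 8.24 ± 0.08 after YAP siRNA, 8.65 ± 0.02 after nonsense siRNA and 8.63 ± 0.07 in untreated cells (SD, n = 3 each). Relative to nonsense siRNA KDM5A fell by 0.41 (adjusted p = 0.000399), and relative to untreated cells by 0.39 (adjusted p = 0.00102). TSPAN14, a tetraspanin gene whose product escorts ADAM10 to the cell surface, had 8.84, 8.73 and 8.74 after YAP siRNA, 9.04, 8.99 and 9.14 after nonsense siRNA and 9.01, 9.08 and 9.01 in untreated cells. Relative to nonsense siRNA TSPAN14 fell by 0.28 (adjusted p = 0.00746), and relative to untreated cells by 0.26 (adjusted p = 0.0173). With every probe set tested NEDD4 was lost against untreated cells. TSPAN14 was lost against untreated cells in that test, with arrays centred on their median, and without YAP siRNA replicate 2 (adjusted p = 0.0961) or untreated replicate 1 or 2.

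POGLUT1, which encodes the enzyme that adds glucose to the EGF repeats of Notch receptors, averaged 7.15 ± 0.05 after YAP siRNA, 7.51 ± 0.08 after nonsense siRNA and 7.35 ± 0.04 in untreated cells (SD, n = 3 each). It fell by 0.36 against nonsense siRNA (adjusted p = 0.00126), and against untreated cells it differed by -0.19 (adjusted p = 0.0839). FRMD8, whose product stabilises ADAM17 with its iRhom partners, averaged 7.21 ± 0.02 after YAP siRNA, 7.40 ± 0.01 after nonsense siRNA and 7.51 ± 0.09 in untreated cells (SD, n = 3 each). FRMD8 fell by 0.29 relative to untreated cells (adjusted p = 0.00587), and against nonsense siRNA the difference was -0.19 (adjusted p = 0.0586). Each of these 2 genes thus passed against a single control, and the difference between the controls did not pass (adjusted p = 0.148 for POGLUT1 and 0.295 for FRMD8). Both calls held whichever array was left out.

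The remaining calls, all against nonsense siRNA, were less stable. The corepressor gene TLE1 fell by 0.21 (adjusted p = 0.0269), the acetyltransferase gene KAT2B fell by 0.22 (adjusted p = 0.0273) and the cyclin gene CCND1 fell by 0.25 (adjusted p = 0.0167). APH1B, which encodes a gamma-secretase subunit, rose by 0.27 (adjusted p = 0.0252). Leaving out YAP siRNA replicate 1 or nonsense siRNA replicate 1 ended each of these 4 calls. The highest adjusted p came without nonsense siRNA replicate 1 for KAT2B (0.140) and TLE1 (0.156), and without YAP siRNA replicate 1 for APH1B (0.139) and CCND1 (0.0979). KAT2B did not pass either without replicate 2 or 3 of YAP siRNA or replicate 2 of nonsense siRNA, nor TLE1 without YAP siRNA replicate 2 or nonsense siRNA replicate 3, nor APH1B without replicate 2 of either siRNA group. All 4 calls were also lost with every probe set tested. With quantile normalization TLE1 and CCND1 were lost, and without the 3 arrays that stand apart KAT2B was lost. APH1B was lost with arrays centred on their median and with only the 6 arrays of the comparison. Against untreated cells none of the 4 passed: the differences were -0.13 for TLE1, -0.17 for KAT2B, -0.18 for CCND1 and 0.16 for APH1B.

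Core parts of the pathway did not pass. RBPJ, the DNA-binding partner of the Notch intracellular domain, averaged 9.87 ± 0.05 after YAP siRNA, 9.66 ± 0.10 after nonsense siRNA and 9.72 ± 0.10 in untreated cells (SD, n = 3 each), at 0.21 above nonsense siRNA (adjusted p = 0.0814). A dimmer RBPJ probe set differed by -0.08 (limma adjusted p = 0.830 over all probe sets), so the probe sets of this gene disagreed in sign. NCSTN, the gene of the gamma-secretase subunit nicastrin, stood at 0.10 above nonsense siRNA (adjusted p = 0.394). The target genes NRARP and HEYL differed from nonsense siRNA by 0.04 (adjusted p = 0.843) and 0.02 (adjusted p = 0.953), and the ligand gene DLL4 by 0.16 (adjusted p = 0.166). Of the 10 measured target genes outside the members, CCND1 was the 1 that passed, and that against nonsense siRNA alone. MAML1 was not analysed here.

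**Figure D3:**
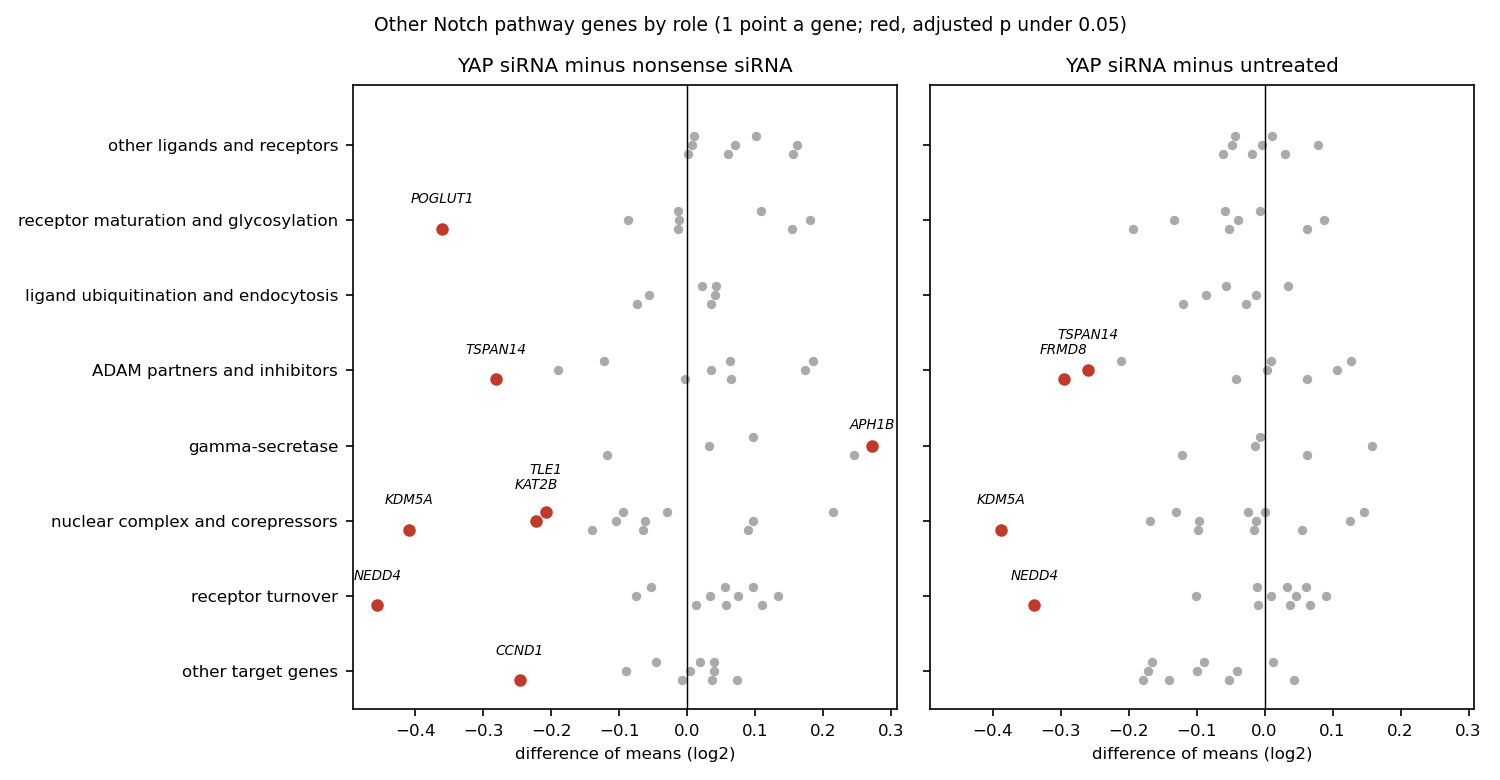
Difference of group means on the log2 scale for the 69 other Notch pathway genes, 1 point a gene, set out by role, for YAP siRNA minus nonsense siRNA and YAP siRNA minus untreated cells. Red marks an adjusted p under 0.05. TSPAN14, KDM5A and NEDD4 are red in both panels, and the grey points of most roles lie on both sides of 0.

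As a yardstick for JAG1, known YAP target genes were read in the same fit. Of 10 listed, 7 fell and 0 rose against nonsense siRNA, beside 2.61% and 1.92% of all genes, with a median difference of -0.30. Against untreated cells 7 fell and 0 rose, beside 1.46% and 1.63% of all genes, with a median of -0.31. The listed genes AXL, LATS2 and F3 did not pass in either comparison, and F3 went the other way. They differed by -0.05, -0.13 and 0.08 from nonsense siRNA, and by -0.18, -0.16 and 0.14 from untreated cells. ANKRD1 fell by 0.48 against nonsense siRNA, AMOTL2 fell by 0.43, CCN1 fell by 0.39 and CCN2 fell by 0.27. The JAG1 difference of -0.35 lay within the range of these 4 genes. Against untreated cells CCN1 fell by 0.64, AMOTL2 fell by 0.51, ANKRD1 fell by 0.42 and CCN2 fell by 0.33, and JAG1 again lay within their range. The call of CCN1 against nonsense siRNA was lost without YAP siRNA replicate 2 or 3 or nonsense siRNA replicate 3 (adjusted p up to 0.0731), and that of CCN2 without YAP siRNA replicate 1 or 2 or nonsense siRNA replicate 3 (up to 0.0693). Against nonsense siRNA, TGFB2 was lost in 5 of 9 fits, those without YAP siRNA replicate 1 or 3 or any 1 of the nonsense siRNA arrays (up to 0.138). Against untreated cells, CRIM1 was lost in 6 of 9, those without any 1 of the YAP siRNA arrays, nonsense siRNA replicate 1, or untreated replicate 1 or 2 (up to 0.177), and AJUBA in 2 of 9, those without YAP siRNA replicate 2 or untreated replicate 2 (up to 0.0560). Other settings ended calls too. With quantile normalization CCN2 and TGFB2 were lost against nonsense siRNA. With arrays centred on their median TGFB2 was lost against nonsense siRNA and CRIM1 against untreated cells. TGFB2 was also lost against nonsense siRNA with only the 6 arrays of the comparison and without the 3 arrays that stand apart. With every probe set tested CCN1, CCN2 and TGFB2 were lost against nonsense siRNA, and CCN2, TGFB2, CRIM1 and AJUBA against untreated cells.

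Pearson's r over the 9 arrays was used to find the genes most alike to JAG1 and ADAM17 among the 9208 others with at least the median signal. It serves as a measure of likeness, with no test, and the step between YAP siRNA and the controls makes up most of it. For JAG1 the 5 highest were WTIP (r = 0.994), YAP1 itself (r = 0.980), FAM168B (r = 0.975), CDKN2B (r = 0.975) and AMOTL2 (r = 0.974). WTIP, which encodes a LIM-domain protein of the Ajuba family, had 7.89, 7.86 and 7.88 after YAP siRNA, 8.15, 8.31 and 8.24 after nonsense siRNA and 8.34, 8.22 and 8.17 in untreated cells. WTIP differed by -0.35 from nonsense siRNA and by -0.37 from untreated cells, close to the JAG1 values. With the group means taken out, r with JAG1 was 0.959 for WTIP, 0.853 for CDKN2B, 0.668 for AMOTL2, 0.648 for FAM168B and 0.593 for YAP1. The genes were chosen by r over these same arrays, so these values are not separate evidence of likeness.

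The genes most alike to ADAM17 were NEDD4 (r = 0.988), SECISBP2L (r = 0.986), UBE2Q2 (r = 0.984), NR3C1 (r = 0.984) and POLA1 (r = 0.983). NEDD4 is thus both a pathway gene that fell and the gene closest to ADAM17. With the group means taken out, r with ADAM17 was 0.901 for NEDD4 and 0.913 for NR3C1, the glucocorticoid receptor gene. It was 0.886 for UBE2Q2, 0.878 for SECISBP2L and 0.851 for POLA1, and the same limit of choice by r applies. In all 5, as in ADAM17, nonsense siRNA had the highest mean: it lay between 0.06 and 0.18 above untreated cells. YAP siRNA replicate 3 was the lowest array of ADAM17 and of these 5 genes. The lists of JAG1 and ADAM17 had no gene in common, and in JAG1 the lowest array was YAP siRNA replicate 2.

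**Figure D4:**
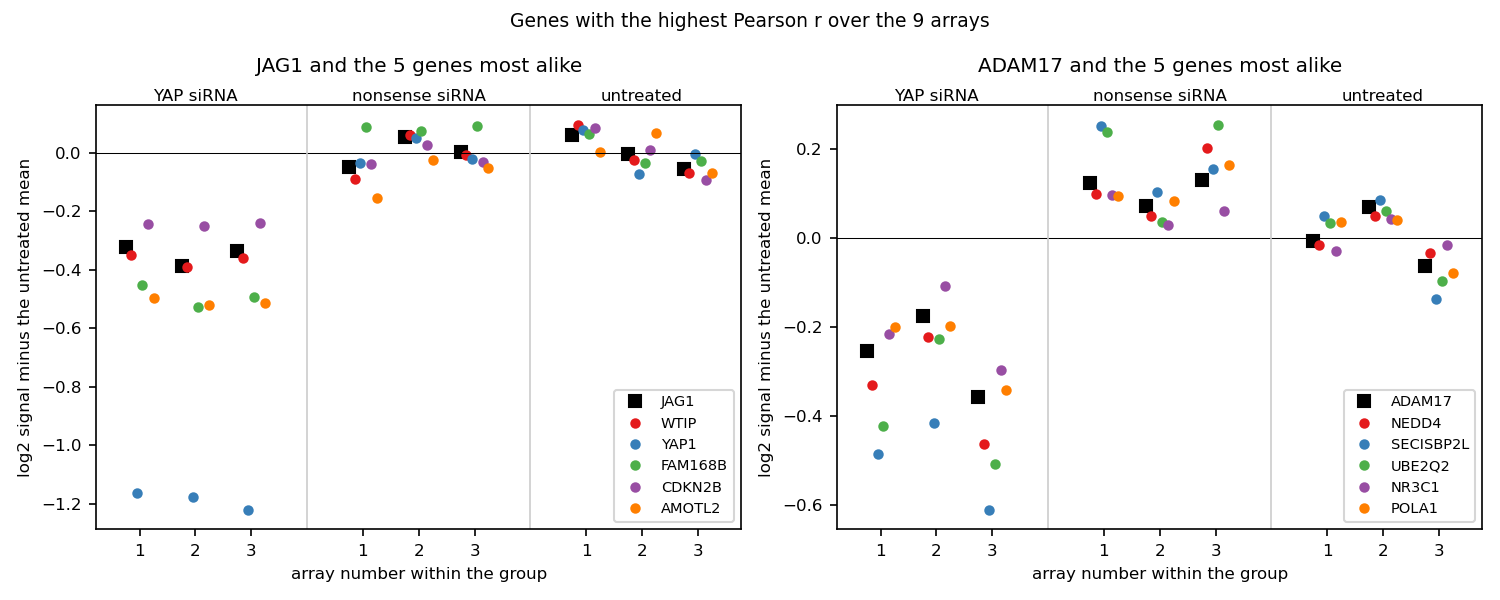
Log2 signal of each array minus the mean of the untreated arrays for JAG1 and the 5 genes most alike (left) and for ADAM17 and the 5 most alike (right), black squares for JAG1 and ADAM17. Arrays are set out as YAP siRNA, nonsense siRNA and untreated, numbered within the group. WTIP lies beside JAG1 on the YAP siRNA arrays, YAP1 lies far below, and the nonsense siRNA points of the ADAM17 set lie above 0.

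The labelled cell type was checked on markers. Of 12 hepatocyte markers 11 were measured, all above the median signal over genes in each group, with AFP at 12.35 to 12.46 after YAP siRNA, 12.37 to 12.51 after nonsense siRNA and 12.28 to 12.36 in untreated cells. The mean log2 level of the hepatocyte list was 10.59 to 10.69 after YAP siRNA, 10.57 to 10.74 after nonsense siRNA and 10.60 to 10.61 in untreated cells. For 11 bile duct markers it was 8.17 to 8.18 after YAP siRNA, 8.13 to 8.18 after nonsense siRNA and 8.13 to 8.17 in untreated cells. For 6 leukocyte markers it was 7.22 to 7.33 after YAP siRNA, 7.22 to 7.24 after nonsense siRNA and 7.24 to 7.35 in untreated cells. For 11 stromal and endothelial markers, 9 of them below the median gene in each group, it was 6.90 to 6.94 after YAP siRNA, 6.85 to 6.89 after nonsense siRNA and 6.92 to 6.97 in untreated cells. Against nonsense siRNA 1 of 11 bile duct, 1 of 11 hepatocyte, 1 of 11 stromal and endothelial and 0 of 6 leukocyte markers passed by limma, beside 4.53% of all genes. Against nonsense siRNA the bile duct marker CLDN4 rose by 0.28 (adjusted p = 0.00860), COL1A2 rose by 0.43 (adjusted p = 0.000538) and FGA fell by 0.24 (adjusted p = 0.0367). The bile duct list did not move together: 7 differences were positive and 4 negative, with PROM1 at -0.20 and ONECUT1 at -0.26, neither passing. Against untreated cells 0 markers of any list passed, with CLDN4 at 0.21, COL1A2 at 0.22 and FGA at -0.06. Nonsense siRNA itself differed from untreated cells by 0.18 for FGA and -0.21 for COL1A2, neither passing. The part of these markers in the results above was not tested.

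Without the 3 arrays that stand apart JAG1 differed by -0.33 from nonsense siRNA (adjusted p = 0.00246) and by -0.38 from untreated cells (adjusted p = 0.00123). ADAM17 differed by -0.34 from nonsense siRNA (adjusted p = 0.00209) and by -0.25 from untreated cells (adjusted p = 0.0184). In that fit 2 members passed against nonsense siRNA and 3 against untreated cells, NOTCH2 being the added one, beside 6.99% and 8.47% of all genes. Of the 69 other pathway genes 11 passed against nonsense siRNA and 8 against untreated cells in that fit, against the same shares of all genes.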

How the data were processed

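Total RNA of 9 Hep3B samples, 3 per group, was measured on Affymetrix arrays as biotinylated cRNA, per the labels' protocols. The deposited values are log2 array signals, a unit inferred from their range; the sources used here do not state how background, summarisation or normalization were handled. No further scaling was applied. Of 33297 probe sets, 19460 had 1 gene in the supplied annotation, 1754 had several and 12083 were not listed. Single-gene probe sets covered 18417 genes, and each of the 769 genes with several was represented by its brightest probe set, by mean over all arrays.

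A linear model with 3 group means was fitted to the 9 arrays together (R 4.3.3, limma 3.58.1: lmFit, then contrasts.fit and eBayes), with two-sided tests, with Benjamini-Hochberg adjustment over all genes and a threshold of 0.05. The fit was tested on simulated data. Intervals of 95% and SE come from the fit. The members and gene lists were chosen with earlier results of these data known. The rule named all 10 members, each other Notch pathway gene that passed, a few core genes whatever their result, and the 5 genes with the highest r. The alternatives were other scalings, filters on dim genes, other uses of probe sets, a variance trend, fewer arrays, array weights, the replicate number as a block, a stricter threshold and leaving out each array. Promoters came from RefSeq (GRCh38.p14). Python 3.11.15 with pandas 2.3.3 and matplotlib 3.10.9 drew the figures. Precision is limited by the number of arrays.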

Additional observations from a re-analysis of the deposited data

How the results depend on the processing

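JAG1 kept its direction and passed under all 21 alternatives against nonsense siRNA, with differences of -0.38 to -0.30, and against untreated cells, with differences of -0.38 to -0.32. Its permutation p was 0.0119 under the 3 alternatives run. ADAM17 passed under all 21 against nonsense siRNA and was lost under 7 of 21 against untreated cells, of which 1 was the stricter threshold of 0.01. The members that passed against nonsense siRNA numbered 2, or 3 with array weights, where 13.1% of all genes passed. Against untreated cells they numbered 1 with arrays centred on their median, with every probe set tested and at 0.01, beside 2.88%, 0.616% and 1.36% of all features. With 1 array left out they numbered 1 to 2, beside 1.51% to 4.21% of all genes.

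Counts over all genes moved more. For YAP siRNA against nonsense siRNA the count of 834 became 424 with every probe set tested, 2404 with array weights, 1287 without the 3 arrays that stand apart, 396 at 0.01 and 426 to 1231 with 1 array left out. For YAP siRNA against untreated cells 569 became 205, 1759, 1560, 250 and 279 to 775 in the same order. For nonsense siRNA against untreated cells 113 became 0, 2620, 2319, 11 and 11 to 1470, and 49 with arrays centred on their median, 67 with only the 6 arrays of the comparison and 65 with the replicate block. Of the other pathway genes, 8 against nonsense siRNA became 4 with every probe set tested, 20 with array weights, 4 at 0.01 and 4 to 10 with 1 array left out. The shares of all features that passed in these fits were 1.27%, 13.1%, 2.15% and 2.31% to 6.68%. The 4 against untreated cells became 2 with every probe set tested, 10 with array weights and 8 without the 3 arrays, beside 0.616%, 9.55% and 8.47% of all features. The 0 between the controls became 6, 3 and 0 to 2 with array weights, without the 3 arrays and with 1 array left out. In the same order, 14.2%, 12.6% and 0.0597% to 7.98% of all genes passed between the controls. Testing every probe set adds features to the adjustment, and the threshold of 0.01 is a stricter cut on the same fit. The cause of the other changes was not tested. The call split shifted with scaling: 460 higher and 408 lower with quantile normalization against 354 higher and 480 lower as deposited (YAP siRNA against nonsense siRNA), and with arrays centred on their median 350 and 181 against 300 and 269 (YAP siRNA against untreated cells) and 32 and 17 against 62 and 51 (nonsense siRNA against untreated cells).

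Signs turned in differences near 0 that passed in neither fit. Between the controls, JAG1 was -0.068 with quantile normalization, -0.029 with array weights, -0.051 without the 3 arrays and -0.026 to 0.032 with 1 array left out. NOTCH1 was 0.00029 with quantile normalization, 0.017 with arrays centred and -0.035 to 0.017 with 1 left out. NOTCH2 was -0.022 with quantile normalization, -0.012 without the 3 arrays and -0.028 to 0.060 with 1 left out. HES1 was -0.028 with quantile normalization and -0.057 to 0.065 with 1 left out, and NOTCH3 -0.15 to 0.00076 with 1 left out. Against nonsense siRNA, HEY1 was -0.052 to 0.015 and NOTCH3 -0.063 to 0.093 with 1 left out. ADAM10 against untreated cells was -0.017 with quantile normalization and -0.040 to 0.061 with 1 left out.

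With the replicate block JAG1 passed at -0.35 in both comparisons (adjusted p = 0.00321 and 0.00466) and ADAM17 at -0.37 (0.00260) and -0.26 (0.0301), and the block gave 789 genes against nonsense siRNA and 509 against untreated cells. Same-numbered arrays of different groups had deviations that correlated at -0.337 to 0.344, and differently numbered ones at -0.336 to 0.47. With 3 arrays a group, these values cannot settle whether samples of the same number were paired. JAG2, NOTCH3 and HEY1 had mean signals under the median over genes, so the filter at that median gives no value for them.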
